A study of Homo sapiens with 8 samples.

Results

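The expressed intergenic and antisense long noncoding RNAs of 2 established lines of T-ALL, the acute lymphoblastic leukaemia of immature T cells, are 260 of the 14884 genes measured: 96 intergenic RNAs with LINC names and 164 antisense RNAs named after the gene they lie across from. They were chosen by name and by level: 937 genes have such a symbol (1 more was left out by the rule), and the 260 are those whose brightest probe set had a mean log2 intensity of at least 5.2 over the 8 arrays. The other 677 were below that level. Just inside it were LINC00696 (5.203) and UGDH-AS1 (5.202), and just outside it MNX1-AS1 (5.196) and SH3RF3-AS1 (5.184). The reference annotation gives 258 of the 260 as lncRNA and 2 as antisense RNA. Because the mean of all arrays chose them, 30 had a mean under 5.18, the lower limit for testing, in 1 of the lines and passed through the other, and 16 of these 30 were among the RNAs called between the lines. Counts between the lines are therefore given as a description.

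Long noncoding RNAs are RNA polymerase II transcripts that carry no long open reading frame. Many are capped, spliced and polyadenylated like messenger RNAs, but they are usually more restricted to one cell type, and many stay in the nucleus and are removed by the nuclear exosome. An antisense RNA is read from the strand opposite a protein-coding gene, often from a start close to that gene's own promoter, and may or may not follow its level. In T-ALL such RNAs have been described as markers of the stage and subtype at which the cells were arrested.

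The lines, CCRF-CEM and HPB-ALL, each gave 4 of the 8 Affymetrix arrays. In each line 1 array held cells with a scramble short hairpin RNA (shRNA), 1 cells with the hairpin shTOX-1, 1 cells with the hairpin shTOX-2, both directed at TOX, and 1 untransduced cells. TOX encodes a nuclear HMG-box protein needed for T cell development. The 6 transduced cultures had gone through spinoculation, puromycin selection and at least 2 weeks of growth, and the untransduced ones had not, so infection, the integrated construct and selection cannot be told apart. Nothing in the labels says that arrays came from separate cultures of one construct, and each line and construct had 1 array. A p-value therefore covers the spread among these 8 arrays alone. That spread holds differences between constructs that a fit groups together, such as scramble and untransduced, and may also be technical in part. Array medians over all probe sets lay between 4.62 and 4.71. Levels of TOX itself were 11.03 and 11.03 on the CCRF-CEM control arrays, 10.65 (shTOX-1) and 9.86 (shTOX-2) on its knockdown arrays. The HPB-ALL controls were at 10.59 and 10.64, its knockdown arrays at 10.16 and 8.75, so all 4 shTOX arrays were below the controls of their line. Of 8 T cell markers measured, the 7 tested were all higher in CCRF-CEM, with CD5 at 9.72 against 7.47 and LCK at 9.89 against 7.49, and CD2 was below the level for testing. Mean levels per array of the marker lists for fibroblasts and epithelium, megakaryocytes and red cell precursors, natural killer cells, B cells and myeloid cells were between 4.30 and 5.89, against 7.16 to 9.53 for the T cell list. Among them MPO, a myeloid granule enzyme, reached 7.03 and 7.94 on the scramble and shTOX-2 arrays of HPB-ALL, and NKG7, a protein of cytotoxic granules, stood at 8.64 ± 0.36 in CCRF-CEM and at 7.62 ± 0.35 in HPB-ALL (SD, n = 4). KRT18, from the list for fibroblasts and epithelium, stood at 7.39 ± 0.11 in CCRF-CEM and at 7.47 ± 0.41 in HPB-ALL (SD, n = 4). The part of other cell types in the results was not tested.

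Promoter windows of 300 bases, 250 before and 50 after the annotated start, were found in RefSeq sequence (GRCh38.p14) for 206 of the 260 RNAs. They held a median of 20 CG pairs, against 14 over the 27305 genes of the table and 26 over the protein-coding genes tested. The antisense RNAs had a median of 22.5 and the LINC RNAs of 11.5. Shown here are the windows of the 4 LINC RNAs farthest apart between the lines that had one, and of 2 antisense RNAs called between the lines whose windows overlap those of their sense genes. The sequences run 5′ to 3′ along the RNA's own strand, and capitals mark GGGCGG, the GC box, on either strand (as GGGCGG or CCGCCC) and CACGTG, the E-box.
LINC01550: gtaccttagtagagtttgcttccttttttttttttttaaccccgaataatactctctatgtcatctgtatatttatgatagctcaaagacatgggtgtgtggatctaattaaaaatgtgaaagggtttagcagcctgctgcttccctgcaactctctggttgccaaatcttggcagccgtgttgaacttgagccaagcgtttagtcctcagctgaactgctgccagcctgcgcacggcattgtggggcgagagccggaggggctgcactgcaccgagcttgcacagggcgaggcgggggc
LINC01096: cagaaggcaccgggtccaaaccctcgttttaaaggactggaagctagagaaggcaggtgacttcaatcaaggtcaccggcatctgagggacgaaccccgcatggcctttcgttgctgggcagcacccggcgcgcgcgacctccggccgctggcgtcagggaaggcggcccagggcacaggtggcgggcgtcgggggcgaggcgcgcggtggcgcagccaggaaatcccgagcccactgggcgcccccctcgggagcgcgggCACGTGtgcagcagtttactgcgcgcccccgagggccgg
LINC00664: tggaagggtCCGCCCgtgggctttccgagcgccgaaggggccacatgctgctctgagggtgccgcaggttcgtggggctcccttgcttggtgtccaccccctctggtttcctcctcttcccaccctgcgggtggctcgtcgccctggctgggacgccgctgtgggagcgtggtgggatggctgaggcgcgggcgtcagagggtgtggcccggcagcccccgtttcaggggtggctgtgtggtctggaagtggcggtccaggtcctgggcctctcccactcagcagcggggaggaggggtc
LINC00963: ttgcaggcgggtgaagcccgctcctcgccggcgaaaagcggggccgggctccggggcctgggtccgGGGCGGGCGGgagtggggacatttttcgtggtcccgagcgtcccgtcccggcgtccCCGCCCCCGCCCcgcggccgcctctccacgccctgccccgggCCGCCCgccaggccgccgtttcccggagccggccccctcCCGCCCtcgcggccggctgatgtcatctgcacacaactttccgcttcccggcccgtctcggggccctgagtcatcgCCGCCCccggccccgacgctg
KTN1-AS1: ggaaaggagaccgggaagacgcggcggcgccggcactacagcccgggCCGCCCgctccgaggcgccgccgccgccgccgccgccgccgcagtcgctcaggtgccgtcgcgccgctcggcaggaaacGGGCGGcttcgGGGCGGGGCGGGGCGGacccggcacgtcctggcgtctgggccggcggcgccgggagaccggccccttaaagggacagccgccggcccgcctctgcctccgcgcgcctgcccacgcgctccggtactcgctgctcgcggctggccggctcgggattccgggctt
ENO1-AS1: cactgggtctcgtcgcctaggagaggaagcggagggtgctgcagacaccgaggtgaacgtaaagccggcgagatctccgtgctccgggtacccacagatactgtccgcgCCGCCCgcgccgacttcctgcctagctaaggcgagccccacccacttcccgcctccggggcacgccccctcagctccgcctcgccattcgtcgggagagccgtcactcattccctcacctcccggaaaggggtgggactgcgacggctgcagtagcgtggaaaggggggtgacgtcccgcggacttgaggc
The windows of LINC01550 (chr14:97978075-97978374, minus strand), LINC01096 (chr4:13547775-13548074, minus strand) and LINC00664 (chr19:21483465-21483764, plus strand) belong to RNAs higher in CCRF-CEM. Those of LINC00963 (chr9:129488410-129488709, plus strand), KTN1-AS1 (chr14:55580043-55580342, minus strand) and ENO1-AS1 (chr1:8878585-8878884, plus strand) belong to RNAs higher in HPB-ALL. The window of LINC01550 held 10 CG pairs and none of the words searched, and that of KTN1-AS1 held 54 CG pairs and 5 GC boxes, overlapping matches and both strands counted. LINC00963 had 43 CG pairs and 7 GC boxes. LINC01096 had 33 CG pairs with 1 E-box and no GC box, LINC00664 had 20 with 1 GC box, and ENO1-AS1 had 31 with 1 GC box. On either strand, GGGCGG was present in 52.4% of the 206 windows, between the 44.6% of all windows in the table and the 71.1% of the protein-coding genes tested. CACGTG was in 10.7% against 7.43% of all and 10.3% of the coding genes. TATAAA was in 16 of the 206 (7.77%), against 3264 of all 27305 and 5.14% of the coding genes. CCAAT was in 36.9% of the 206 windows, 35.7% of all and 37.2% of the coding genes, in 9 of the 52 windows (17.3%) of RNAs called between the lines and in 11 of the 24 (45.8%) of RNAs called for transduction, described further on. These are matches of letters in a fixed window and show no binding.

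The lines differed most in a small set of these RNAs, some of which were under 5.18, the lower limit for testing, in one line. Between CCRF-CEM and HPB-ALL, 65 of the 260 RNAs were called by limma at an adjusted p under 0.05, against 27.4% of the 8930 genes tested. Of these, 38 (14.6%) were higher in CCRF-CEM, where the background was 12.4%, and 27 (10.4%) were higher in HPB-ALL, where it was 14.9%. With a log2 difference of at least 1, 26 (10.0%) were called, against 8.23% of all genes. The called RNAs were 27 of the 96 LINC and 38 of the 164 antisense RNAs. The median line difference was 0.06 over the 260 RNAs and -0.01 over all genes tested. In bulk RNA, fewer cells that express an RNA and less of it per cell cannot be told apart.

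**Figure D1:**
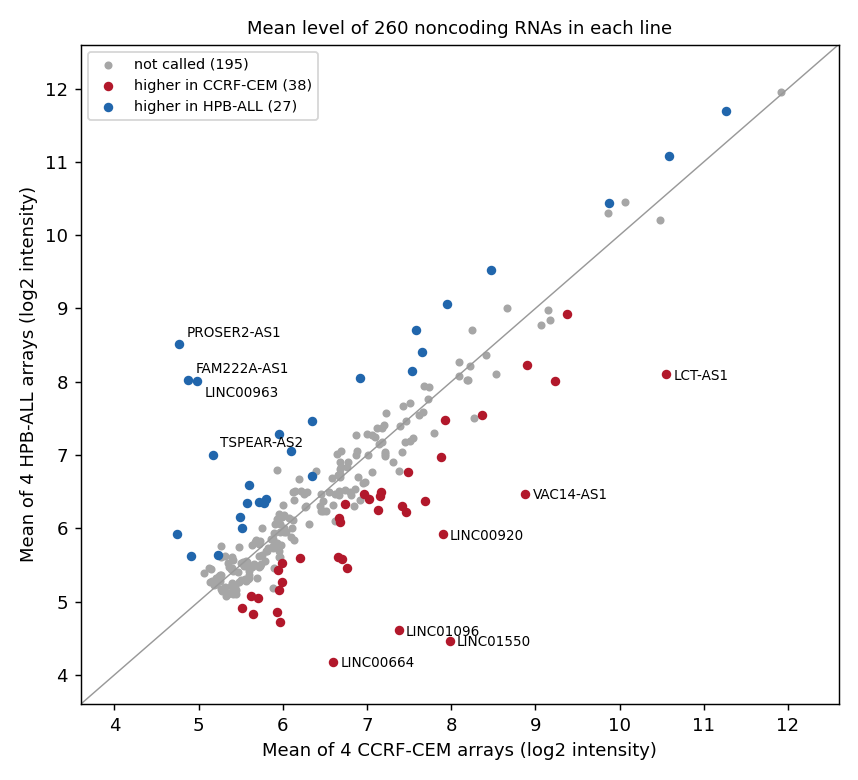
Mean log2 intensity of each of the 260 noncoding RNAs over the 4 CCRF-CEM arrays (horizontal axis) and the 4 HPB-ALL arrays (vertical axis), with the line of equal means in grey. The 38 RNAs called higher in CCRF-CEM are red, the 27 called higher in HPB-ALL are blue and the 195 not called are grey; LINC01550, LINC01096 and LINC00664 lie under 5 in HPB-ALL, and PROSER2-AS1, FAM222A-AS1 and LINC00963 lie under 5 in CCRF-CEM.

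The intergenic RNA LINC01550 had the largest difference toward CCRF-CEM. Its levels there were 7.86 with scramble, 7.86 with shTOX-1, 7.66 with shTOX-2 and 8.55 untransduced, and 4.54, 4.35, 4.57 and 4.40 in HPB-ALL. The lines were 3.52 ± 0.17 (SE) log2 units apart, 11.5-fold, with adjusted p = 3.27e-07. All HPB-ALL values were under 5.18, the lower limit for testing, so this fold is a ratio to a level under that limit. No array of one line came within 3 log2 units of any array of the other. The nearest protein-coding start in the promoter table is that of BCL11B, a transcription factor that commits progenitors to the T lineage, 1294073 bases away on the same strand. BCL11B was also higher in CCRF-CEM, at 10.34 ± 0.14 against 9.07 ± 0.18 (SD, n = 4), a difference of 1.27.

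LINC01096, an intergenic RNA that starts 3316 bases from the homeobox gene NKX3-2, stood at 7.08, 7.07, 7.32 and 8.04 in CCRF-CEM (scramble, shTOX-1, shTOX-2, untransduced). In HPB-ALL it was at 4.93, 4.31, 4.40 and 4.79, all under 5.18, the lower limit for testing. The arrays of the lines were well apart, by 2.77 ± 0.19 on average (adjusted p = 3.09e-06), whereas NKX3-2 differed by 0.38 (adjusted p = 0.112). LINC00664, which starts 21.9 kb from the zinc finger gene ZNF429, was at 6.82, 6.30, 6.89 and 6.39 in CCRF-CEM and at 4.34, 4.06, 4.14 and 4.19 in HPB-ALL. Its HPB-ALL values were also all under 5.18. It was 2.42 ± 0.16 higher in CCRF-CEM (adjusted p = 2.14e-06), and ZNF429 was higher there too, by 1.03 (adjusted p = 0.00107). LINC00920 was at 7.43, 7.90, 7.85 and 8.42 in CCRF-CEM and at 5.49, 6.27, 5.45 and 6.46 in HPB-ALL, 1.98 ± 0.27 apart. LINC00426, whose nearest coding start is that of the katanin-like gene KATNAL1 at 66.4 kb, was 1.31 ± 0.24 higher in CCRF-CEM, and KATNAL1 was 0.67 higher (adjusted p = 0.0033). In all, 11 LINC RNAs called between the lines had a tested nearest coding gene in the promoter table. That gene was called in the same direction in 4 cases (LINC01433 with RNF24 being the fourth) and not called in 7. Of all genes tested, 27.4% were called between the lines. In the 4 cases the starts lay 21.9 to 1290 kb apart, and whether neighbours go together was not tested.

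LCT-AS1, antisense to the lactase gene, was bright in both lines. It stood at 10.25, 10.46, 10.42 and 11.09 in CCRF-CEM and at 7.51, 8.18, 8.12 and 8.60 in HPB-ALL, 2.45 ± 0.24 apart (adjusted p = 4.54e-05). Every CCRF-CEM array was above every HPB-ALL array. VAC14-AS1 had the least even difference of those at least 1 log2 unit in size. In HPB-ALL it was flat, at 6.45, 6.44, 6.59 and 6.40, whereas in CCRF-CEM it was at 7.02 with scramble, 8.86 with shTOX-1, 8.72 with shTOX-2 and 10.92 untransduced. Its line difference of 2.41 had an SE of 0.62, the largest among the called RNAs (adjusted p = 0.0167), and the alternatives tried gave between 1.60 and 3.16, with adjusted p between 0.00031 and 0.0462.

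**Figure D2:**
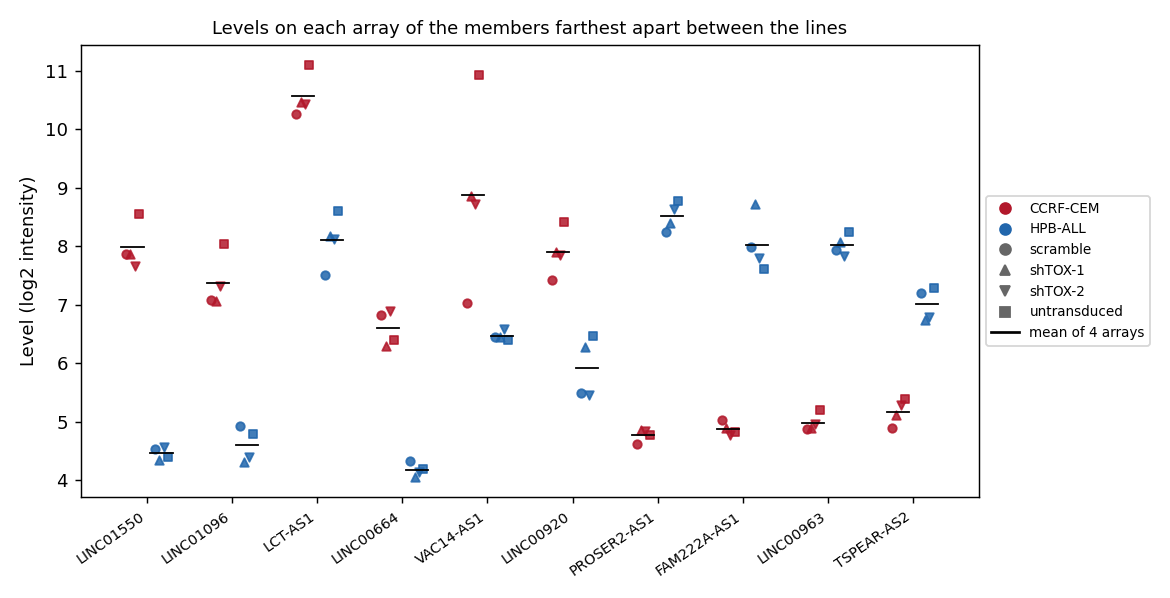
Log2 intensity on each of the 8 arrays (vertical axis) of the 10 noncoding RNAs with the largest line differences, 6 higher in CCRF-CEM (left) and 4 higher in HPB-ALL (right). Colour gives the line, the marker shape the construct and the black bar the mean of 4 arrays; the 4 CCRF-CEM values of VAC14-AS1 run from 7.02 to 10.92, wider than those of any other RNA drawn.

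The other RNAs higher in CCRF-CEM by at least 1 were LINC00226 (1.31 ± 0.20), LINC00648 (1.24 ± 0.40), MELTF-AS1 (1.24 ± 0.12), LINC00938 (1.21 ± 0.18), LINC00494 (1.13 ± 0.19), LOXL1-AS1 (1.11 ± 0.20), PCED1B-AS1 (1.07 ± 0.30) and LINC00885 (1.04 ± 0.13). The 4 arrays of each line did not overlap for any of these except PCED1B-AS1 and LINC00648. PCED1B-AS1 was at 6.21, 5.82, 5.27 and 6.43 in CCRF-CEM and at 4.38, 4.50, 5.62 and 4.95 in HPB-ALL. Its call was lost, at adjusted p from 0.0562 to 0.081, without any 1 of the scramble, shTOX-1 and untransduced arrays of either line. LINC00648 was at 4.62 with scramble in CCRF-CEM and at 6.20, 6.34 and 6.69 on the other 3 arrays, against 4.28, 4.65, 4.58 and 5.36 in HPB-ALL. Its adjusted p of 0.0449 rose to between 0.0954 and 0.128 without any 1 of the other CCRF-CEM arrays or of the HPB-ALL scramble, shTOX-1 and shTOX-2 arrays. A further 23 RNAs were called higher in CCRF-CEM by 0.41 to 0.91.

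Toward HPB-ALL, the largest difference of the 260 was that of PROSER2-AS1. It was at 4.61, 4.86, 4.84 and 4.77 in CCRF-CEM and at 8.25, 8.39, 8.63 and 8.77 in HPB-ALL, a difference (CCRF-CEM minus HPB-ALL) of -3.74 ± 0.14, 13.3-fold higher in HPB-ALL (adjusted p = 6.54e-08). FAM222A-AS1 was at 5.03, 4.89, 4.77 and 4.83 in CCRF-CEM and at 7.98, 8.71, 7.80 and 7.61 in HPB-ALL, 8.87-fold higher in HPB-ALL (adjusted p = 2.47e-06). LINC00963, an RNA studied mostly in carcinomas, was at 4.87, 4.89, 4.96 and 5.21 in CCRF-CEM and at 7.93, 8.07, 7.83 and 8.23 in HPB-ALL, 8.19-fold higher (adjusted p = 1.18e-07). All 3 had a mean in CCRF-CEM under 5.18, the level of the dimmest genes tested. A fold there is thus a ratio to a level under the limit for testing. The medians of the CCRF-CEM arrays over all probe sets were 4.66 to 4.71. TSPEAR-AS2 followed, at 4.89, 5.11, 5.29 and 5.38 in CCRF-CEM and at 7.20, 6.74, 6.79 and 7.29 in HPB-ALL (adjusted p = 1.37e-05).

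LINC00173, AFAP1-AS1, LINC00997, TMEM147-AS1, LINC00623, C10orf95-AS1 and LINC00265 were higher in HPB-ALL, with differences from -1.05 to -1.32. The arrays of the lines overlapped for LINC00623, whose untransduced CCRF-CEM array was at 7.22 and whose HPB-ALL scramble array was at 7.13. AFAP1-AS1, an RNA described in many carcinomas, was at 5.86, 5.36, 5.44 and 7.01 in HPB-ALL and between 4.56 and 4.94 on the CCRF-CEM arrays, with the untransduced HPB-ALL array the highest. Its CCRF-CEM values were all under 5.18, the lower limit for testing. LINC00173 had 4 probe sets. The brightest gave -1.32 (CCRF-CEM minus HPB-ALL), others -1.65 and -0.49, and 1 gave 0.09, so its difference depends on the probe set. LINC00265 had 3, at -1.05, -0.29 and 0.01. KTN1-AS1, whose promoter window is printed above with those of the line RNAs, was at 6.44, 6.13, 6.02 and 5.82 in CCRF-CEM and at 6.88, 7.05, 6.75 and 7.56 in HPB-ALL, without overlap (difference -0.96 ± 0.19, adjusted p = 0.00377). A further 16 RNAs, KTN1-AS1 among them, were called higher in HPB-ALL, with differences from -0.36 to -0.99. In all, the 4 arrays of each line did not overlap for 31 of the 38 RNAs called higher in CCRF-CEM and for 19 of the 27 called higher in HPB-ALL. The calls rest on the same arrays, so these counts describe the called RNAs and add no separate evidence. The share of all genes without overlap is not given here.

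The difference between the lines was compared for each antisense RNA and the gene across from it. The sense gene was measured under its symbol for 107 of the 164 antisense RNAs, and both partners were tested in 85 pairs. The line differences had the same sign in 48 of the 85 pairs, and across pairs they correlated at r = 0.12 (n = 85 pairs, which share the same 8 arrays). Both partners were called in 5 pairs, the antisense RNA alone in 12, the sense gene alone in 14 and neither in 54. The antisense RNA was thus called in 17 of the 85 pairs and the sense gene in 19, where 27.4% of all genes tested were called. Negative differences were those of 34 of the 85 antisense RNAs and 39 of the sense genes, and agreement in sign beyond these shares was not tested. Where both starts were in the promoter table they lay on opposite strands in all 122 pairs, and in 59 pairs within 1 kb of each other. Pairs with close starts had the same sign in 16 of 31 cases and more distant ones in 15 of 29.

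Among the 5 pairs with both called, 4 had the same direction. LCT, the lactase gene, was higher in CCRF-CEM with LCT-AS1, at 6.08 ± 0.18 against 5.23 ± 0.12 (SD, n = 4). VAC14, which encodes the scaffold of a phosphoinositide kinase complex, was 0.45 ± 0.14 higher there (adjusted p = 0.0334). LOXL1, a lysyl oxidase that cross-links elastin, was 0.63 ± 0.15 higher in CCRF-CEM, and TMEM147, a membrane protein of the endoplasmic reticulum, differed by -0.50 ± 0.12, both on the side of their antisense RNAs. In the fifth pair the partners were opposed: SBF2-AS1 fell from 6.36 ± 0.32 in HPB-ALL to 5.72 ± 0.09 in CCRF-CEM, while SBF2 rose from 6.31 ± 0.47 to 7.38 ± 0.29. PROSER2-AS1, with the largest difference of all, faced a PROSER2 that differed by 0.20 ± 0.12 (adjusted p = 0.253). MELTF, across from MELTF-AS1, differed by 0.40 (adjusted p = 0.0578). In the other direction, TTC28-AS1 differed by -0.25 (adjusted p = 0.134) across from a TTC28 at -1.26 (lower in CCRF-CEM), and PCBP3-AS1 differed by 0.34 (adjusted p = 0.0714) across from a PCBP3 that was 1.62 higher. Also across from called sense genes and not called themselves were GAS5-AS1 (-0.35), ZSWIM8-AS1 (-0.37), HHIP-AS1 (0.29) and ZEB1-AS1 (0.23), with the sign of their sense genes, and CCDC18-AS1 (-0.37), across from a CCDC18 that was 0.68 higher in CCRF-CEM. The largest of these sense differences was that of CD27, a costimulatory receptor of lymphocytes, which was 2.67 higher in CCRF-CEM while CD27-AS1 differed by 0.11 (adjusted p = 0.572). LRP4, at 1.57, likewise faced an LRP4-AS1 at 0.04. The sign was opposite for SH3BP5 (1.33) with SH3BP5-AS1 (-0.17), UGDH (0.62) with UGDH-AS1 (-0.13) and PXN (-0.55) with PXN-AS1 (0.20). PCOLCE-AS1 (-0.10) and ZNF436-AS1 (-0.11) had the sign of their sense genes. In all, the sign was the same in 10 of the 14 pairs with the sense gene called alone. CCDC18-AS1 was called, at -0.74, without the CCRF-CEM untransduced array. Whether the probe sets read strand was not given in the sources used here, and where transcripts overlap the signals of the partners cannot be told apart.

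**Figure D3:**
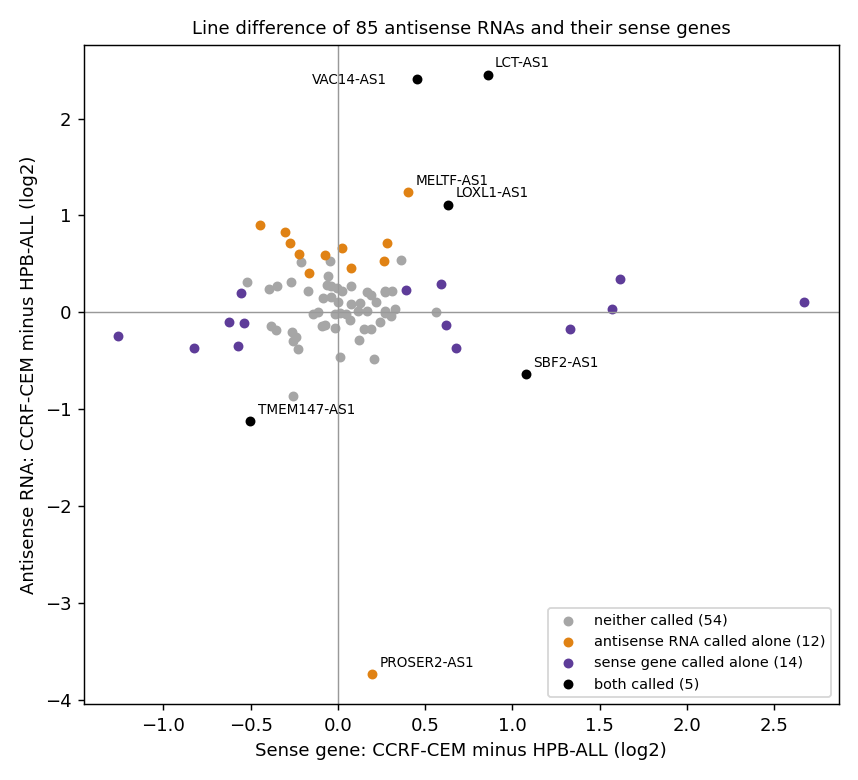
Difference between CCRF-CEM and HPB-ALL (log2) of 85 antisense RNAs (vertical axis) against that of their sense genes (horizontal axis), with both partners among the genes tested. Black points are the 5 pairs with both partners called, orange the 12 with the antisense RNA called alone, purple the 14 with the sense gene called alone and grey the 54 with neither; SBF2-AS1 is the black point with partners on opposite sides of 0.

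The RNAs called between untransduced and transduced cells were nearly all lower in transduced cells. Of the 260 RNAs, 30 (11.5%) were called between the 6 transduced and the 2 untransduced arrays, against 11.0% of all genes. Among all genes the calls were divided, 5.97% higher and 5.05% lower in transduced cells. Of the noncoding RNAs, 1 (0.385%) was called higher and 29 (11.2%) lower. The 29 are 12 LINC and 17 antisense RNAs, with differences from -0.52 to -2.11. The median of the 260 differences was -0.14, against 0.03 over all genes tested; it was -0.21 for LINC and -0.11 for antisense RNAs. Under the alternatives tried, including leaving out either untransduced array, the median of the RNAs stayed between -0.24 and -0.12 and that of all genes between 0.02 and 0.05. All 3 transduced arrays were below the untransduced array of their line in both lines for 79 RNAs (30.4%, against 16.7% of all genes), and above it for 20 (7.69%, against 20.5%).

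With 2 untransduced arrays the count of calls rests heavily on each. Without the CCRF-CEM untransduced array 0 of the 260 were called, and 12 of all 8930 genes. Without the HPB-ALL one, 9 were (3.46%), and 307 of all genes (3.44%). The count was 45 (17.3%, against 10.9% of all genes) without the CCRF-CEM scramble array. It was 19 (7.31%, against 7.83%) and 18 (6.92%, against 7.09%) without the shTOX-1 and shTOX-2 arrays of that line. The direction was seen in each line apart. Relative to the scramble array, the untransduced array had a median of 0.15 over the 260 RNAs in CCRF-CEM and at 0.10 in HPB-ALL, with 170 and 162 of them above it. Over all genes tested the same medians were -0.02 and -0.02. The shTOX-1 and shTOX-2 arrays had medians within 0.02 of the scramble array in both lines.

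**Figure D4:**
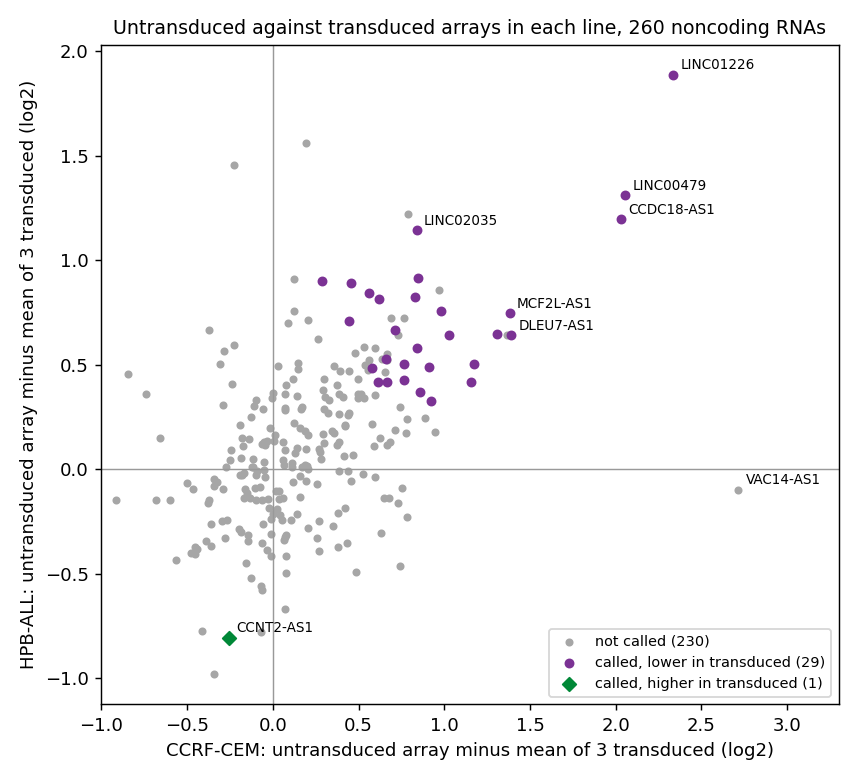
For each of the 260 noncoding RNAs, the untransduced array minus the mean of the 3 transduced arrays of the same line (log2), in CCRF-CEM on the horizontal axis and HPB-ALL on the vertical axis. Purple points are the 29 RNAs called lower in transduced cells, all with positive values in both lines; the green diamond is CCNT2-AS1, the 1 called higher; VAC14-AS1, at the far right, differed in CCRF-CEM and not in HPB-ALL.

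LINC01226 had the largest difference of the 260. It was at 10.02 in untransduced CCRF-CEM and at 8.11, 7.17 and 7.77 with scramble, shTOX-1 and shTOX-2. The HPB-ALL arrays were at 8.92 untransduced and at 8.45, 6.24 and 6.41 in the same order. Transduced minus untransduced cells gave -2.11 ± 0.49, 4.32-fold lower (adjusted p = 0.0248), with the shTOX arrays the lowest in each line. LINC00479 was at 6.85 in untransduced and 4.49, 4.81 and 5.09 in transduced CCRF-CEM (scramble, shTOX-1, shTOX-2), and at 6.18 against 5.54, 4.03 and 5.03 in HPB-ALL. It was 3.21-fold lower in transduced cells (adjusted p = 0.0155). Apart from HPB-ALL with scramble, its transduced arrays were under 5.18, the lower limit for testing. CCDC18-AS1 was at 7.66 against 5.94, 5.25 and 5.71 in CCRF-CEM and at 7.40 against 6.70, 6.03 and 5.90 in HPB-ALL. It was 3.06-fold lower in transduced cells (adjusted p = 0.00771), while CCDC18, its partner, differed by -0.33 without a call.

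MCF2L-AS1 fell by 1.06 ± 0.25, from 7.55 in untransduced CCRF-CEM and 6.80 in untransduced HPB-ALL cells. DLEU7-AS1, from the region of chromosome 13 often deleted in lymphocytic leukaemia, was at 6.93 untransduced and 5.75, 5.48 and 5.38 transduced in CCRF-CEM, and at 5.67 against 4.93, 5.04 and 5.11 in HPB-ALL. LINC02035 (-0.99 ± 0.15), LINC00426 (-0.98 ± 0.18) and PCGF3-AS1 (-0.88 ± 0.17) followed, each with the untransduced array above the other 3 in both lines. All 8 of these RNAs lost their call without the CCRF-CEM untransduced array, with adjusted p between 0.0714 and 0.32. LINC01226, MCF2L-AS1, LINC02035 and PCGF3-AS1 also lost it without the HPB-ALL untransduced array, at 0.109, 0.0573, 0.0651 and 0.0981. With eBayes run with trend and robust settings, LINC01226 was at adjusted p = 0.0514. The direction stayed negative in each of these fits.

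Among the other 21 called lower were CDKN2B-AS1 (-0.70 ± 0.18), the antisense RNA of the INK4 tumour suppressor locus, PRKCQ-AS1 (-0.72 ± 0.12), which lies across from the gene of protein kinase C theta, and LINC00665 (-0.63). The 1 called higher, CCNT2-AS1, was at 5.36 untransduced and 5.67, 5.51 and 5.66 transduced in CCRF-CEM, and at 4.70 against 5.58, 5.35 and 5.58 in HPB-ALL (0.53 ± 0.15, adjusted p = 0.0443). Without the HPB-ALL untransduced array it differed by 0.26 (adjusted p = 0.458), and without the CCRF-CEM one by 0.81 (adjusted p = 0.106). LINC01120, LINC00482 and LINC00863 had the next smallest p in that direction, at 0.44, 0.43 and 0.59, with adjusted p of 0.0543, 0.0546 and 0.065. LCT-AS1, LINC00426, LINC00623, LINC03027 and TSPOAP1-AS1 were called in both the line and the transduction comparison. The other probe set of LINC03027 gave a line difference of -0.04, against -0.67 for the brightest, so that difference depends on the probe set. For transduction it gave -0.48, against -0.68.

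In transduced cells 55 of the 85 antisense RNAs with a tested partner and 38 of their sense genes had negative differences. In 32 of the 85 pairs the antisense RNA was lower and the sense gene higher in transduced cells, in 15 the reverse, and in 38 the signs were the same (r = -0.12 across the 85 pairs). The antisense RNA was called in 10 of the 85 pairs and the sense gene in 8, where 11.0% of all genes tested were called. Both partners were called in 2 pairs, in opposite directions each time. STARD4-AS1 was at 7.40 untransduced against 7.16, 7.03 and 7.15 transduced in CCRF-CEM, and at 7.85 against 7.09, 6.91 and 6.86 in HPB-ALL (-0.59 ± 0.15, adjusted p = 0.0319). STARD4, a sterol carrier whose start lies 309 bases away on the opposite strand, was at 8.11 untransduced against 8.26, 9.03 and 9.58 in CCRF-CEM, and at 7.12 against 8.63, 8.49 and 8.49 in HPB-ALL (1.13 ± 0.28, adjusted p = 0.0297). PRC1-AS1 fell by 0.58 ± 0.14 (adjusted p = 0.0261) across from PRC1, a protein of the mitotic spindle midzone that rose by 0.78 ± 0.12 (adjusted p = 0.00545).

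Most long noncoding RNAs with other names were also lower in transduced cells. Of 22 measured, 17 were tested. Of the 17 differences 14 were negative, with a median of -0.43, against 0.03 over all genes tested. MALAT1, the abundant nuclear speckle RNA, fell by 0.70 in transduced cells (adjusted p = 0.0191) and DLEU1 by 0.60 (adjusted p = 0.0228). CYTOR rose by 0.95 (adjusted p = 0.0165). These calls were 1 higher and 2 lower, where 5.97% of all genes were called higher and 5.05% lower. Of 8 small nucleolar RNA host genes tested, 5 were negative, with a median of -0.05 and 0 called. The 15 genes tested of the nuclear exosome and its NEXT and PAXT adaptors, which degrade many noncoding transcripts, had a median of 0.14 with 0 called, and the 11 of the Integrator complex, which ends their transcription, a median of -0.05 with 0 called. Between the lines, 2 of the 17 other RNAs were called higher in CCRF-CEM, CYTOR (0.96) among them, and 4 lower, MIR22HG (-1.22) and LINC-PINT (-0.87) among them. Of the 8 host genes 1 was called higher, SNHG8 (0.97), and 4 lower. Of all genes tested, 12.4% were called higher in CCRF-CEM and 14.9% lower. In the same comparison 1 exosome gene, EXOSC6, was called higher in CCRF-CEM (by 0.41), and 2 Integrator genes lower, among them INTS10 (-0.83, adjusted p = 0.000482). The part of these genes in the results for the 260 RNAs was not tested.

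Lowering of TOX was followed by no called change. Between the 4 shTOX and the 4 control arrays limma called 0 of the 260 RNAs, and 0.0% of all genes, at an adjusted p under 0.05. TOX itself, lower on all 4 shTOX arrays than on the controls of the same line, was thus not called either. A count of 0 here does not show that nothing changed. At an unadjusted p under 0.05 there were 51 (19.6%), against 14.3% of all genes. The median difference was -0.07, against 0.03 over all genes. Both shTOX arrays were below both controls in both lines for 25 RNAs (9.62%, against 4.99% of all genes) and above them for 11 (4.23%, against 6.36%). The controls include the untransduced arrays, which were themselves higher for many of these RNAs. Against the scramble arrays alone 0 were called (0.0% of all genes) and 19 (7.31%) had an unadjusted p under 0.05, against 5.14%, with a median of 0.01. The negative median against both kinds of control was not seen against scramble, although single RNAs had negative values in both; the comparisons share the shTOX arrays.

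LINC01226 was the lowest of all genes tested in shTOX against scramble, at -1.38 ± 0.31 (unadjusted p = 0.00128, adjusted p = 0.899). Against both controls it was at -1.98 ± 0.36 (adjusted p = 0.283). The shTOX arrays, at 7.17 and 7.77 in CCRF-CEM and at 6.24 and 6.41 in HPB-ALL, were all below the scramble array of their line, by 0.34 in the closest case. It was called, at adjusted p = 0.0375, when the construct was a term shared by both lines, and at 0.00224 without the CCRF-CEM scramble array. LINC01061, LINC01000 and LINC01347 had the next smallest p against both controls, at -0.63 ± 0.14, -0.60 ± 0.14 and -0.58 ± 0.14, each with adjusted p = 0.292. Against scramble they were at -0.54, -0.48 and -0.43 (unadjusted p = 0.0074, 0.0133 and 0.0193, each with adjusted p = 0.93). Larger differences against both controls, also without a call, included those of CCDC18-AS1 (-1.20), LINC00479 (-1.03), LINC00977 (-0.91) and MCF2L-AS1 (-0.81). LINC01061 was at 10.45 with scramble, 9.53 with shTOX-1, 9.80 with shTOX-2 and 10.49 untransduced in CCRF-CEM, and at 10.52, 10.35, 10.11 and 10.85 in HPB-ALL. LINC01061 shares 177 words of 25 bases between its promoter window and that of LINC01002, and whether these RNAs share probe sequence was not tested. The order of the 4 arrays was the same for LINC01061, LINC01000 and LINC01347 in CCRF-CEM and in HPB-ALL.

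**Figure D5:**
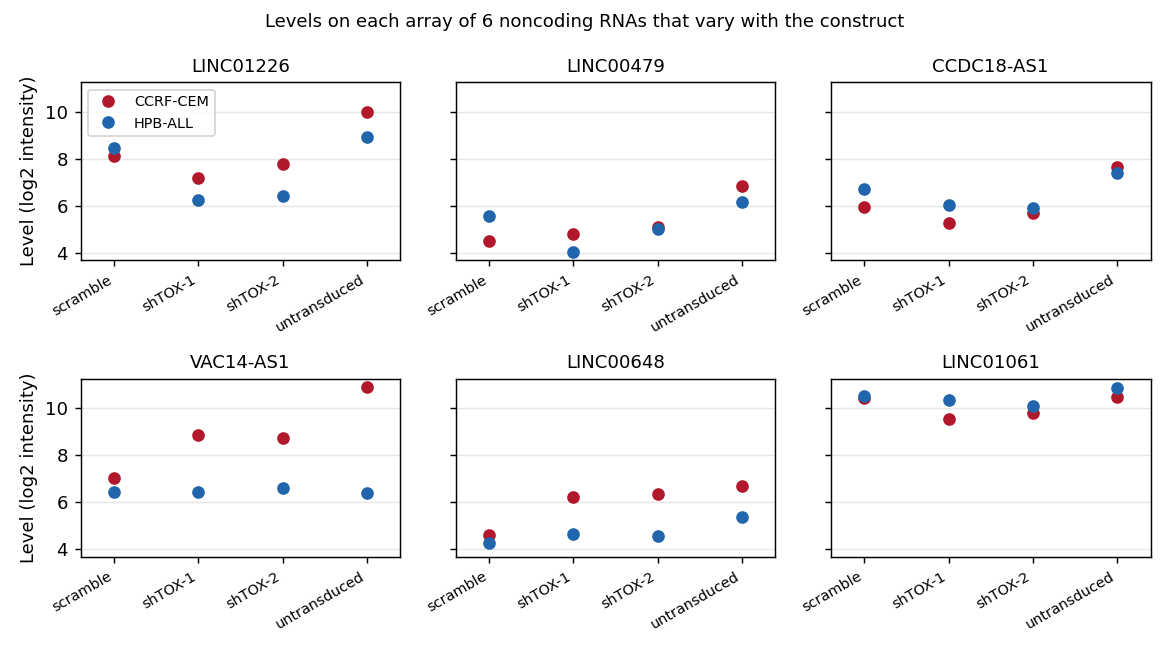
Log2 intensity on each array of 6 noncoding RNAs, by construct (horizontal axis) and line (colour; 1 array per point). LINC01226, LINC00479 and CCDC18-AS1 are highest in the untransduced array of both lines, and VAC14-AS1 varies from 7.02 to 10.92 in CCRF-CEM only. LINC00648 is lowest with scramble in both lines, and LINC01061 is lower with shTOX-1 and shTOX-2 than in both controls.

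In the direction of higher values with shTOX, LINC00226 was at 6.36 (scramble) and 6.08 (untransduced) in CCRF-CEM against 7.06 and 7.57 with shTOX-1 and shTOX-2. In HPB-ALL it was at 5.38 and 5.35 against 5.40 and 5.71. The average difference was 0.64 ± 0.20 (adjusted p = 0.301). NDUFB2-AS1 (0.37 ± 0.12), RHPN1-AS1 (0.49 ± 0.17) and LINC00863 (0.49 ± 0.17) had the same adjusted p. Against scramble, LINC00648 (1.00 ± 0.25, adjusted p = 0.899), LCT-AS1 (0.42), RHPN1-AS1 (0.58) and RPH3AL-AS1 (0.29) had the smallest p among the positive differences, the last 3 at adjusted p = 0.93. LINC00648 was lowest with scramble in each line, and in CCRF-CEM it was at 4.62 with scramble and at 6.69 untransduced.

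Within CCRF-CEM 0 were called (0.0% of all genes), and 49 (18.8%) had an unadjusted p under 0.05, against 9.19%. LINC00226 had the largest positive difference, 1.10 ± 0.21 (adjusted p = 0.399), and LINC00696 (0.56), WEE2-AS1 (0.58) and LINC01554 (0.45) the next smallest p. LINC03009 (-0.97 ± 0.20), SH3BP5-AS1 (-1.42 ± 0.32), MORF4L2-AS1 (-0.86 ± 0.20) and ENO1-AS1 (-0.68 ± 0.15) had the smallest p among the negative differences, all at adjusted p = 0.399. The most negative difference was that of LINC01226, at -1.59. SH3BP5-AS1 was at 7.28 with scramble and 7.90 untransduced against 6.12 and 6.21 with shTOX-1 and shTOX-2. Without the CCRF-CEM scramble array 4 RNAs (1.54%) were called, CCDC18-AS1, LINC01144, LINC01226 and VAC14-AS1, against 65 of all genes (0.728%). The control was then the untransduced array alone, which is assumed to vary like the other groups.

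Within HPB-ALL 0 were called (0.0% of all genes), and 22 (8.46%) had an unadjusted p under 0.05, against 7.58%. LINC01963 was at 6.29 with scramble and 6.05 untransduced, against 7.77 and 7.03 with shTOX-1 and shTOX-2 (1.23 ± 0.27, adjusted p = 0.612). NPPA-AS1 (0.73), ZNF566-AS1 (0.64) and THAP7-AS1 (0.50) had the next smallest p in that direction. LINC01226 was at -2.36 ± 0.52, LINC03027 at -0.82, LINC00977 at -1.13 and LINC00494 at -0.67, all at adjusted p = 0.612.

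The difference between the lines in their shTOX differences had 0 called (0.0% of all genes), with 19 (7.31%) at an unadjusted p under 0.05 against 4.59%. The largest by p was ENO1-AS1, across from the glycolytic enzyme enolase. It was at 5.92 with scramble and 5.90 untransduced in CCRF-CEM against 5.28 and 5.18 with shTOX-1 and shTOX-2, and at 6.16 and 6.08 in HPB-ALL against 6.45 and 6.67. The shTOX arrays were thus below both controls in CCRF-CEM and above both in HPB-ALL, a difference of 1.12 ± 0.22 (unadjusted p = 0.000701, adjusted p = 0.973). NPPA-AS1 (1.14), PSMA3-AS1 (1.08), LINC01963 (1.24), LINC00226 (-0.91), WEE2-AS1 (-0.92), FGD5-AS1 (-0.58) and LINC00494 (-0.78) had the same adjusted p.

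Between the hairpins, shTOX-2 left less TOX than shTOX-1 in both lines. Of the 260 RNAs 0 were called between them (0.0% of all genes), and 10 (3.85%) had an unadjusted p under 0.05, against 4.27%. C10orf95-AS1 had the smallest p among the RNAs lower with shTOX-2, at 7.61 against 8.03 with shTOX-1 in CCRF-CEM and at 8.46 against 9.51 in HPB-ALL (-0.74 ± 0.19, adjusted p = 0.849). PAXIP1-AS2 (-0.84), ATP2A1-AS1 (-0.64) and LINC00174 (-0.59) had the next smallest p. In the other direction the smallest p were those of GAS5-AS1 (0.74), LINC01126 (0.52), NAPA-AS1 (0.40) and NFYC-AS1 (0.56), each at adjusted p = 1.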

How the data were processed

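The data are 8 Affymetrix arrays labelled by the GeneChip WT Plus protocol, per the labels, with 1 array per line and construct. Judged from their range, the values the authors deposited are on a log2 scale; their background correction, summarization and normalization: not given in the sources used here. Of 53617 probe sets, 16098 carried 1 gene symbol, and the brightest probe set stood for each of 14884 genes (37 of the 260 RNAs had more than 1). The test covered the 8930 genes whose mean reached the 40th percentile over genes, a log2 level of 5.18.

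Differences were fitted on all 8930 genes by lmFit, contrasts.fit and eBayes (no trend) of limma 3.58.1, R 4.3.3, with Benjamini-Hochberg adjustment over all of them, and called at an adjusted p under 0.05. The script was tested on simulated data. The lines and shTOX against both controls came from 1 fit with line and shTOX as terms, shTOX against scramble from a fit with line and state, transduced against untransduced from a fit with line and transduction, values within a line from means of its shTOX and control arrays, and hairpins from a fit with line, controls and hairpin. Values after ± are standard errors unless marked SD. The tests compared each gene with itself across arrays. Levels of different probe sets were set side by side only to choose probe sets and genes by level and to describe levels, as for the marker lists.

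Named RNAs were, for the lines, up to 15 each way called with a log2 difference of at least 1. For other comparisons they were up to 8 called each way by size, or the 4 smallest p where fewer than 4 were called. Antisense RNAs with a called sense gene (up to 12), list genes and coding neighbours were added, and KTN1-AS1, CDKN2B-AS1, PRKCQ-AS1, LINC00665, STARD4-AS1, PRC1-AS1, 7 further antisense RNAs with a called sense gene and RNAs with larger differences for shTOX against both controls were picked after their values were seen. The RNAs, lists and tests were chosen with earlier results of these data known. Alternatives were no filter, a filter at the 50th percentile, quantile normalization, the mean of probe sets, eBayes with trend and robust settings, a construct term, and leaving out each array. The number of arrays limits the precision.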

Additional observations from a re-analysis of the deposited data

Results flagged for a closer look

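In 88 groups of 4 arrays, 1 for each RNA and line checked, 2 had a lone array farther from the others than the 95% limit of Dixon's test allows, where chance gives about 1 in 20. LINC00226 was at 5.71 with shTOX-2 in HPB-ALL, against 5.35 to 5.396 on the other 3 arrays of that line. LINC00265 was at 9.24 with scramble in HPB-ALL, against 9.59 to 9.63 on the others.

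For 5 RNAs both shTOX arrays were on one side of both controls in CCRF-CEM and on the other side in HPB-ALL. All 5 are among the RNAs named above for their small p in the difference between the lines, so the pattern is no separate evidence. The share of all genes with this pattern is not given here. The shTOX difference in HPB-ALL minus that in CCRF-CEM was 1.12 for ENO1-AS1, 1.14 for NPPA-AS1, 1.08 for PSMA3-AS1, -0.92 for WEE2-AS1 and -0.58 for FGD5-AS1. Each was tested in limma's fit over all genes, and each had adjusted p = 0.973.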

How the results depend on the processing

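The count of RNAs called between the lines was 48 to 65 when 1 array was left out (1817 to 2471 of all 8930 genes), 77 (29.6%) with the replicate block, against 32.6% of all genes, and 66 (25.4%) without both untransduced arrays, against 25.9%, an alternative chosen after seeing the data. For shTOX against both controls the count of 0 became 1 (LINC01226) with the replicate block, against 16 of all genes, and 0 to 1 when 1 array was left out, against 0 to 4. Leaving out 1 array gave 0 to 45 calls for transduced against untransduced cells (12 to 1095 of all genes), 0 to 4 for shTOX within CCRF-CEM (0 to 65) and 0 to 1 for the difference of the shTOX differences (0 to 8). For shTOX against scramble, shTOX within HPB-ALL and the hairpins it gave 0 throughout. Pairs with the same sign between the lines were 44 to 48 of 85. Of the values of named RNAs for the lines under these alternatives, 17 lost and 3 gained a call, and for transduction 22 lost and 5 gained one, with no reversed direction among called values.

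The numbers of the shTOX arrays name hairpins and not shared batches. Deviations of arrays with the same hairpin number in the 2 lines correlated at r = 0.23 over all genes tested, and the pairing entered only through that block, which took the construct as a term. A signal near 5.18 is close to the limit for testing, and how much of it is background was not tested. Differences of the dimmest RNAs are therefore the least certain.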
